A study of Rattus norvegicus with 16 samples.

Results

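The 10 genes described here make, inactivate or sense prostaglandins: Pla2g4a, Ptgs1, Ptgs2, Ptges, Ptges2, Ptgis, Hpgd, Ptger1, Ptger2 and Ptger4. They were chosen by name from the gene column of a count table of 32623 rat genes. Of these 10 genes, 9 were found there, and Ptgis was not analysed here. In each comparison 5 of the 9, Pla2g4a, Ptgs1, Ptgs2, Ptges2 and Ptger1, passed the filter on low counts. The libraries come from a study of acidic medium in a co-culture of kidney epithelial cells with fibroblasts. NRK-52E is an epithelial line and NRK-49F a fibroblast line, both from normal rat kidney. NRK-52E cells on permeable filter inserts stood above NRK-49F cells in the same wells, without serum for 24 h and then at pH 7.4 or pH 6.0 for 48 h. Poly(A)-enriched RNA of each line was sequenced, with 4 libraries for each of the 4 groups of cell line and pH. NRK-52E libraries were N1, N2, N5 and N6 at pH 7.4 and N3, N4, N7 and N8 at pH 6.0. NRK-49F libraries were N9, N10, N13 and N14 at pH 7.4 and N11, N12, N15 and N16 at pH 6.0. The labels do not say whether the 4 libraries of a group came from separate cultures, so p-values measure the spread between these samples, which may be technical.

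Prostaglandins are lipid mediators that cells make from arachidonic acid, which phospholipases release from membranes. Cyclooxygenases convert it to prostaglandin H2, terminal synthases turn that into the single prostaglandins, and a dehydrogenase inactivates them. In the kidney, prostaglandin E2 acts through EP receptors on blood flow, renin release and the handling of salt and water.

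Between 16201084 and 34784862 fragments were counted on genes per library. The epithelial label of NRK-52E was only partly borne out by markers. Of 7 epithelial markers 4 exceeded 1 FPM (fragments counted on a gene, scaled to library size) in NRK-52E at pH 7.4, and 2 did at pH 6.0. The sum of the list was 787 to 830 FPM at pH 7.4 and 763 to 978 FPM at pH 6.0. Krt8 led at pH 7.4 with 430 FPM and Tjp1 at pH 6.0 with 579 FPM. Cdh1, which encodes E-cadherin, averaged 1.62 FPM at pH 7.4 against 0.315 FPM in acidic medium, and Epcam had 0 or 1 count in each NRK-52E library. Cdh1, Krt8 and Krt19 were called lower at pH 6.0 in NRK-52E (log2 -2.31, -0.47 and -1.63). Tjp1 was called higher, from 371 to 579 FPM (log2 0.62). In NRK-49F the same list summed to 926 to 1059 FPM at pH 7.4 and 316 to 352 FPM at pH 6.0, with Krt8 in the lead. At each pH 3 of its markers exceeded 1 FPM there. Krt8 was called lower in NRK-49F, from 848 to 206 FPM (log2 -2.06, edgeR FDR 4.8e-08), and Tjp1, with 130 and 127 FPM, was not called. Cdh1 had 0 counts in the NRK-49F libraries at pH 7.4 and 4 to 9 at pH 6.0, where DESeq2 alone gave an FDR of 0.00554. The 9 fibroblast markers summed to 23140 to 26720 FPM at pH 7.4 and 18110 to 19370 FPM at pH 6.0 in NRK-49F, led by Fn1 and Col1a1. In NRK-52E their sum was 6854 to 7277 FPM at pH 7.4 and 2249 to 3571 FPM in acidic medium. The sums of the lines did not overlap, although single genes went the other way. Col3a1 led there and was higher in the epithelial line, with 6221 FPM against 458 FPM at pH 7.4 and 2630 FPM against 53.9 FPM at pH 6.0. Vim, Pdgfrb, Col3a1 and Fn1 were called lower at pH 6.0 in both lines, Dcn in NRK-52E and Lum in NRK-49F. Col1a1 was not called, with 6205 FPM at pH 7.4 and 8288 FPM in acidic medium in NRK-49F, where the groups did not overlap (log2 0.40, edgeR FDR 0.0103, DESeq2 FDR 0.000582). Pdgfra averaged 392 FPM at pH 7.4 and 368 FPM in acidic medium in NRK-49F, and Thy1 had no count in any library. Pdgfra had 4029 to 18028 counts in NRK-49F libraries and 0 to 10 in NRK-52E libraries, so little NRK-49F RNA was seen in the latter. For the other direction, Ptgdr2 had 12 to 257 counts in NRK-52E libraries and 0 in all NRK-49F libraries. Mgll had 128 to 490 counts in NRK-52E libraries and 0 to 16 in NRK-49F libraries. The share of NRK-52E RNA in NRK-49F libraries was not tested. The 6 proximal tubule markers summed to 28.3 to 46.2 FPM in NRK-52E at pH 7.4 and 24.0 to 35.2 FPM in acidic medium, with Aqp1 in the lead at 34.4 and 26.4 FPM, and Slc34a1 had no count there. Lrp2, of the same list, went from 0.634 to 0.0118 FPM in NRK-52E. It did not pass the filter of edgeR, and DESeq2 alone gave an FDR of 1.57e-05. In NRK-49F this list was higher, at 119 to 157 FPM at pH 7.4 and 357 to 546 FPM in acidic medium, where its leading gene Ggt1 rose from 112 to 413 FPM (log2 1.87, edgeR FDR 1.96e-06). Slc5a2, of the same list, was called lower in both lines, from 0.978 to 0.105 FPM in NRK-49F (log2 -3.04, edgeR FDR 0.000554), and Cubn was not called in either. Cd68, a lysosomal protein of macrophages, rose from 81.2 to 243 FPM in NRK-49F, where Ptprc and Adgre1 had no count, and the 5 macrophage and leukocyte markers summed to 62.5 to 97.1 FPM and then 224 to 263 FPM. In NRK-52E these 5 summed to 1.56 to 2.53 FPM at pH 7.4 and 2.95 to 3.90 FPM in acidic medium, and Csf1r was called higher, from 0.243 to 1.08 FPM (edgeR FDR 0.000168, DESeq2 FDR 2.39e-05). Tek, an endothelial receptor, went from 41.1 to 7.02 FPM in NRK-52E, where Kdr had no count, and the 3 endothelial markers measured summed to 35.4 to 44.2 FPM and then 5.75 to 8.04 FPM. The part of these shifts in the results was not tested. The lines were grown and processed apart, so a marker named for another cell type does not show that such cells were present. In bulk RNA, fewer cells expressing a gene and less of its RNA per cell cannot be told apart.

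In NRK-52E cells at pH 6.0, Pla2g4a, Ptgs1 and Ptger1 fell and Ptges2 rose, while Ptgs2 did not pass the test. A gene was called when its false discovery rate (FDR, the Benjamini-Hochberg adjusted p) was under 0.01 in edgeR and in DESeq2, with the same sign. The 4 called members, 1 higher and 3 lower, stand beside 56.7% of 13735 genes called in this comparison, 28.2% higher and 28.5% lower. In NRK-49F cells 2 members, Ptgs1 and Ptger1, were called, both lower, and Pla2g4a was called lower as well when the second number in the library names was a covariate. Among 13339 genes tested in NRK-49F, 37.8% were called, 18.4% higher and 19.4% lower. For the 5 members the median log2 change was -1.29 in NRK-52E, and for NRK-49F it was -0.56, beside 0.00 over all genes tested in each line. With so large a share of the transcriptome called in each line, these counts are not a result about the members as a set.

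Between the lines at pH 7.4, 4 members were called. Pla2g4a, Ptgs1 and Ptgs2 were higher in NRK-49F and Ptger1 was higher in NRK-52E. Of 14679 genes tested, 59.8% were called, 31.9% higher and 27.9% lower in NRK-49F. At pH 6.0 all 5 tested members were called, with Ptges2 joining Ptger1 on the NRK-52E side, beside 63.2% of all genes, 32.5% higher and 30.7% lower in NRK-49F. The difference of the pH effects between the lines was called for 1 member, Pla2g4a, beside 36.9% of all genes. The line comparisons share their libraries with the pH comparisons. All NRK-52E cells grew on filter inserts and all NRK-49F cells on the well bottom, so line and growth surface cannot be told apart. The labels do not pair libraries of the lines by well, and the model treats all libraries as independent.

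**Figure D1:**
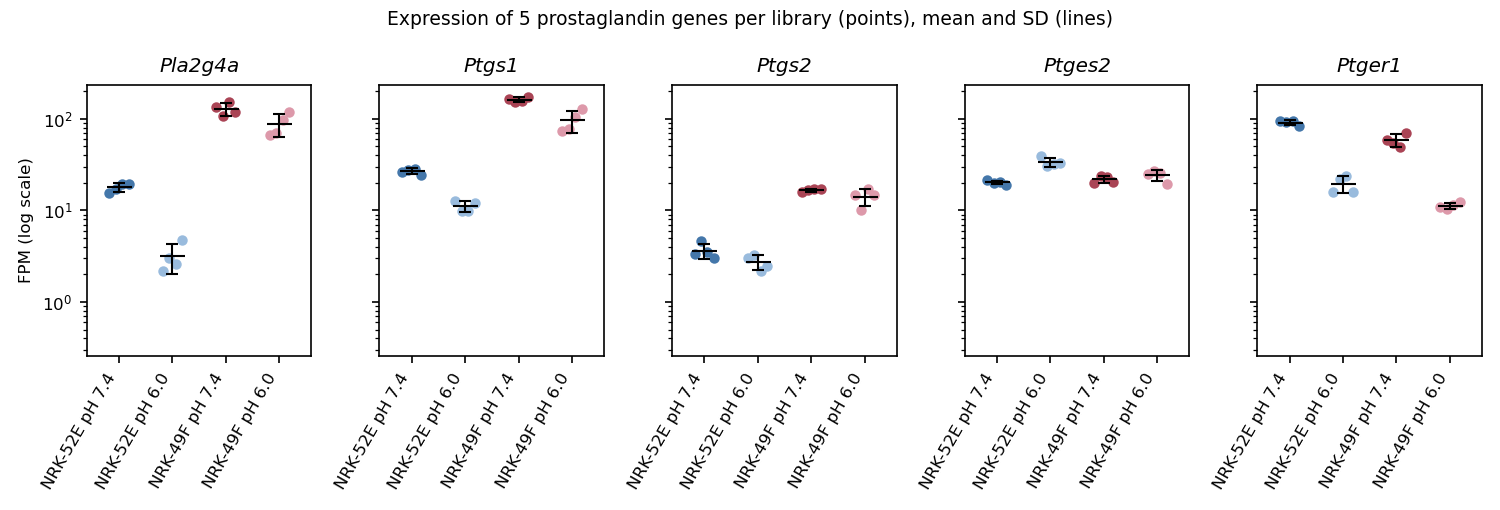
FPM on a log axis of Pla2g4a, Ptgs1, Ptgs2, Ptges2 and Ptger1 in each library (points), with the mean and SD of 4 libraries per group (lines). Ptger1 lies between 10.4 and 23.9 FPM in the pH 6.0 libraries of both lines and between 48.7 and 95.5 FPM in those at pH 7.4.

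Pla2g4a (ENSRNOG00000002657, chromosome 13) encodes cytosolic phospholipase A2, which releases arachidonic acid from membrane phospholipids. In NRK-52E its values were 15.3, 17.0, 19.3 and 19.5 FPM at pH 7.4 and 2.20, 3.01, 2.62 and 4.80 FPM at pH 6.0. The groups did not overlap, and every acidic library lay far below every control. The mean went from 17.8 ± 1.997 to 3.16 ± 1.14 FPM (SD, n = 4), 5.68-fold lower in edgeR (log2 -2.51, SE 0.239, edgeR FDR 5.51e-06). In NRK-49F the values were 134, 106, 153 and 120 FPM at pH 7.4 and 66.0, 69.3, 97.7 and 119 FPM at pH 6.0. Here N16 lay within the range of the controls and the groups overlapped. The log2 fold change was -0.56 (SE 0.175, edgeR FDR 0.0179, DESeq2 FDR 0.00688), so Pla2g4a was not called in NRK-49F, and it was called without N16 (log2 -0.73, edgeR FDR 0.00223) and with the second number in the library names as a covariate (log2 -0.59, edgeR FDR 0.00346). The difference of the pH effects, NRK-49F minus NRK-52E, was log2 1.96 (SE 0.292, edgeR FDR 2.63e-05). Pla2g4a was 7.20-fold higher in NRK-49F than in NRK-52E at pH 7.4 and 28.0-fold higher at pH 6.0 (edgeR FDR 4.07e-10 and 1.3e-12). In order of level, both NRK-49F groups came first, followed by NRK-52E at pH 7.4 and at pH 6.0.

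Ptgs1 (ENSRNOG00000007415, chromosome 3) encodes cyclooxygenase-1, the form found in most tissues without a stimulus. NRK-52E libraries had 26.5, 27.8, 28.6 and 24.5 FPM of Ptgs1 at pH 7.4 and 12.6, 9.84, 9.84 and 12.1 FPM at pH 6.0. All acidic libraries were below all controls. The fall was 2.45-fold (log2 -1.29, SE 0.138, edgeR FDR 1.25e-05). NRK-49F libraries had 162, 151, 158 and 173 FPM of Ptgs1 at pH 7.4 and 73.5, 77.7, 104 and 129 FPM at pH 6.0. These groups did not overlap either, and the acidic libraries spread more widely, with an SD of 25.5 FPM against 9.47 FPM. Ptgs1 was 1.70-fold lower at pH 6.0 in NRK-49F (log2 -0.76, SE 0.149, edgeR FDR 0.00108). The pH effects of the lines differed by log2 0.55 (SE 0.207, edgeR FDR 0.034), which did not pass 0.01. NRK-49F had 5.99-fold more Ptgs1 than NRK-52E at pH 7.4 and 8.77-fold more at pH 6.0 (edgeR FDR 2.11e-11 and 2.15e-12). In the order of its 4 group means no neighbours overlapped, and NRK-49F at pH 6.0 against NRK-52E at pH 7.4 was the pair not tested.

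Ptgs2 encodes cyclooxygenase-2, the form that inflammatory stimuli induce in many cells. In NRK-52E it had 3.37, 4.59, 3.48 and 3.05 FPM at pH 7.4 and 3.06, 3.28, 2.17 and 2.49 FPM at pH 6.0. The groups overlapped, and the change was not called (log2 -0.42, SE 0.219, edgeR FDR 0.107). The exact two-sided permutation test gave p = 0.0857, where 4 against 4 libraries allow no p below 0.0286. In NRK-49F Ptgs2 had 15.8, 16.47, 17.1 and 17.2 FPM at pH 7.4 and 14.7, 10.01, 17.2 and 14.54 FPM at pH 6.0. There was overlap again, and no call (log2 -0.25, SE 0.151, edgeR FDR 0.187, exact permutation p = 0.114). The lines differed in Ptgs2 far more than the media did, 4.58-fold at pH 7.4 and 5.22-fold at pH 6.0, NRK-49F being higher (edgeR FDR 5.2e-09 and 1.84e-09). Its pH effects differed between the lines by log2 0.19 (SE 0.261, edgeR FDR 0.571).

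Ptges2 encodes a membrane-associated protein described as a prostaglandin E synthase. NRK-52E libraries had 21.5, 19.7, 20.3 and 19.1 FPM of Ptges2 at pH 7.4 and 38.7, 30.1, 32.1 and 32.8 FPM at pH 6.0. All 4 acidic libraries were above all controls, and Ptges2 was the member that rose. The rise was 1.64-fold (log2 0.71, SE 0.116, edgeR FDR 0.000274). In NRK-49F its values were 20.01, 23.8, 23.0 and 20.6 FPM at pH 7.4 and 25.0, 26.9, 25.6 and 19.6 FPM at pH 6.0. These overlapped, and the change was not called (log2 0.13, SE 0.13, edgeR FDR 0.405, exact permutation p = 0.229). The difference of its pH effects, NRK-49F minus NRK-52E, was log2 -0.56 with an edgeR FDR of 0.0102 and a DESeq2 FDR of 0.00475, so it narrowly missed the call. At pH 7.4 the lines had alike means of 20.2 and 21.8 FPM (log2 0.12, SE 0.12, edgeR FDR 0.40). At pH 6.0 Ptges2 was 1.36-fold higher in NRK-52E (edgeR FDR 0.0025). This last call rests on single libraries: it was lost without N3 (log2 -0.38, edgeR FDR 0.0109) and without N16 (log2 -0.35, edgeR FDR 0.0118).

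Ptges encodes the inducible microsomal prostaglandin E synthase. It had 0 counts in all 8 NRK-52E libraries, where 3 counts over the 8 libraries would be 0.0171 FPM, and 0 to 3 counts in NRK-49F libraries. Hpgd, the dehydrogenase that begins prostaglandin breakdown, had 1 count each in N1 and N2 and 0 in the other libraries. At this depth neither gene could be compared between groups, and the floor covers counting error only.

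Ptger1 encodes EP1, a receptor of prostaglandin E2 that raises intracellular calcium. In NRK-52E it had 95.5, 91.8, 93.3 and 82.8 FPM at pH 7.4 and 15.9, 22.3, 23.9 and 15.99 FPM at pH 6.0. In NRK-49F it had 58.6, 54.7, 48.7 and 70.5 FPM at pH 7.4 and 10.8, 10.4, 11.47 and 12.3 FPM at pH 6.0. In both lines the groups were widely apart. Ptger1 was 4.72-fold lower at pH 6.0 in NRK-52E (log2 -2.24, SE 0.138, edgeR FDR 3.49e-07) and 5.20-fold lower in NRK-49F (log2 -2.38, SE 0.124, edgeR FDR 6.67e-08). The difference between these effects was log2 -0.13 (SE 0.191, edgeR FDR 0.597). NRK-52E had 1.56-fold more Ptger1 than NRK-49F at pH 7.4 and 1.71-fold more at pH 6.0 (edgeR FDR 0.000275 and 6.25e-05). In the RefSeq annotation of GRCr8, Ptger1 lies 531 bases from Gipc1, which was looked up after its values were seen. Gipc1 fell in both lines, with log2 -1.14 for NRK-52E and -0.68 for NRK-49F (edgeR FDR 0.000203 and 0.000139). The counting options that the methods print set no strand, and the default of featureCounts is to count without it. The part of neighbouring transcripts in the Ptger1 counts was not tested.

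Ptger2 and Ptger4 encode EP2 and EP4, the receptors of prostaglandin E2 that raise cyclic AMP. Ptger2 had 0 or 1 count in NRK-52E libraries and 1 to 32 in NRK-49F libraries, with the highest count in N16. Ptger4 had 0 to 9 counts in NRK-52E and 0 to 6 in NRK-49F. Neither passed the filter of edgeR, so no change with pH is given for them. Between the lines at pH 6.0, DESeq2 alone called Ptger2 higher in NRK-49F (log2 5.16, DESeq2 FDR 0.000116), on 0 or 1 count in each NRK-52E library.

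Library names carry a second number whose meaning is not given, 21 or 22 in NRK-52E and 20 or 21 in NRK-49F, with 2 libraries of each pH per number. Within 21 and 22 in NRK-52E, the log2 fold changes were -2.66 and -2.41 for Pla2g4a, -1.32 and -1.29 for Ptgs1, and -2.33 and -2.17 for Ptger1. Ptges2 had log2 0.70 within each number, although with 2 against 2 libraries neither was called (edgeR FDR 0.0149 and 0.0266). Within 20 and 21 in NRK-49F, Ptger1 had log2 -2.41 and -2.35. The fall of Ptgs1 in NRK-49F was log2 -1.05 within 20 (edgeR FDR 4.31e-06) and -0.53 within 21 (edgeR FDR 0.0462), so it was called within 20 alone. Pla2g4a in NRK-49F followed the same order, with log2 -0.82 within 20 (edgeR FDR 0.000111) and -0.35 within 21 (edgeR FDR 0.189).

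Other genes of the pathway were taken from a list of 28 symbols, of which 26 were in the table and 25 had a count. Fam213b and Prxl2b on this list name the same gene, which was in the table as Prxl2b. In NRK-52E 15 of them were tested and 12 called, 8 higher and 4 lower at pH 6.0, and the 15 had a median log2 change of 0.90. Over all genes tested in NRK-52E, 56.7% were called, 28.2% higher and 28.5% lower, and the median was close to 0. In NRK-49F 20 were tested and 11 called, 8 higher and 3 lower, with a median of 0.51, and 7 were called without N9, without N10 or without N15. Over all genes tested in NRK-49F, 37.8% were called, 18.4% higher and 19.4% lower, and the median was close to 0. With so many genes called, these counts and those by role are descriptions and not a result about the pathway. Of the 8 called higher in each line, 5 were shared: Pla2g4b, Pla2g12a, Plaa, Akr1b1 and Abcc4. Among all genes 1180 were called higher in both lines, 30.4% of those higher in NRK-52E and 48.0% of those higher in NRK-49F, and the difference from these shares was not tested.

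**Figure D2:**
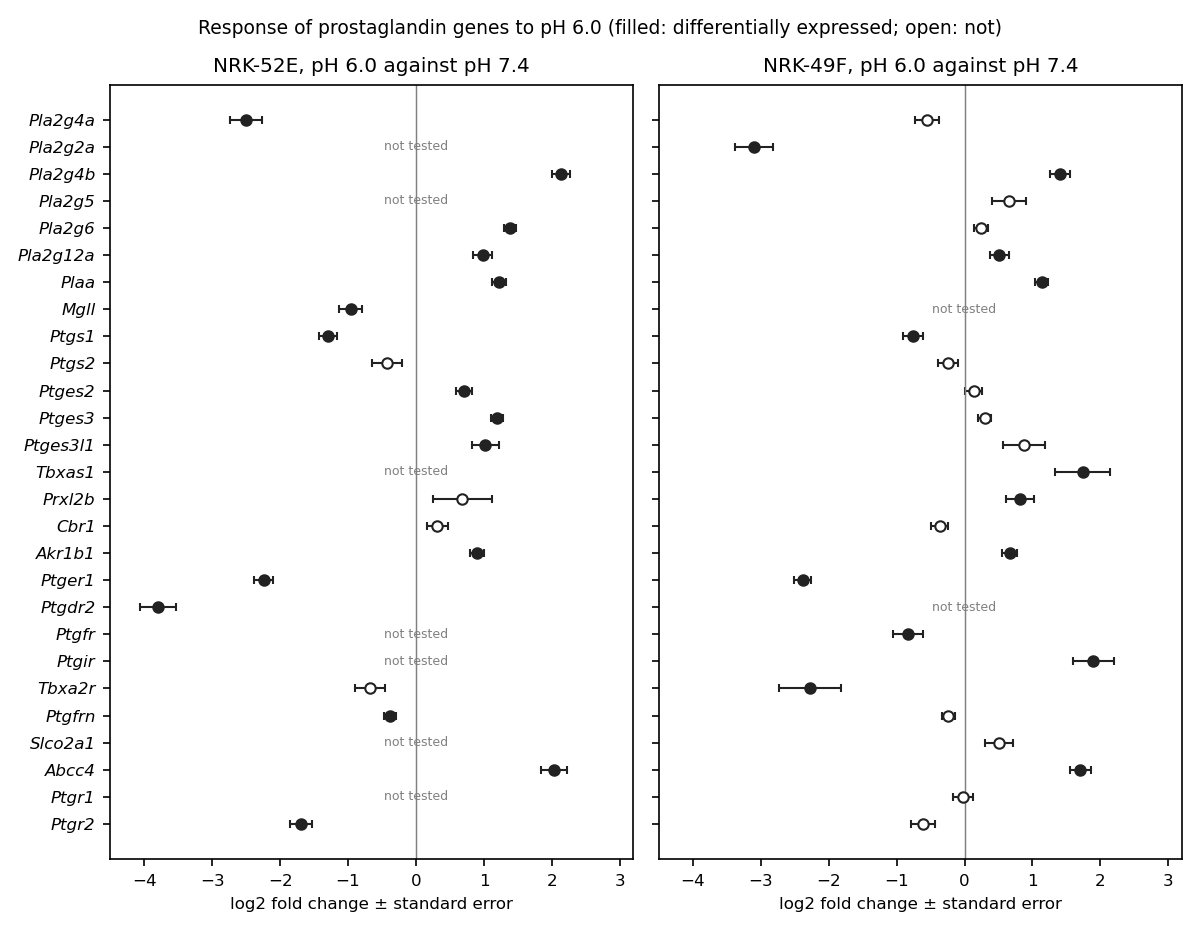
Log2 fold change at pH 6.0 against pH 7.4 with its standard error for each tested prostaglandin gene, NRK-52E on the left and NRK-49F on the right. Filled points passed an FDR of 0.01 in edgeR and DESeq2, and Ptger1 lies at -2.24 and -2.38 in the 2 lines.

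Of the further genes that supply arachidonic acid, 5 were tested in NRK-52E, with 4 called higher and 1 lower, beside the 56.7% of all genes called there. In NRK-49F 6 were tested, with 3 called higher, 1 lower and 2 not called, beside 37.8% of all genes. The phospholipases Pla2g4b and Pla2g6 rose by log2 2.13 and 1.38 in NRK-52E, and Plaa, which encodes a phospholipase A2 activating protein, by log2 1.22. Mgll, the lipase that cleaves monoacylglycerols, fell (log2 -0.96). In NRK-49F Pla2g4b rose by log2 1.41 and Plaa by log2 1.13. The secreted phospholipase Pla2g2a had 118 to 2081 counts in NRK-49F libraries and 0 or 1 in NRK-52E libraries, and in NRK-49F it went from 89.1 to 10.4 FPM (log2 -3.10, SE 0.275, edgeR FDR 2.96e-06). Pla2g4b overlaps Jmjd7 and Sptbn5, and Pla2g2a overlaps Pla2g5, in the RefSeq annotation, so their counts are uncertain. Jmjd7 was also higher at pH 6.0, by log2 1.43 for NRK-52E and log2 1.62 for NRK-49F.

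Of the further synthases, NRK-52E cells had 3 of 5 tested called higher, beside 28.2% of all genes, and NRK-49F cells 3 of 6, beside 18.4%. Ptges3, a co-chaperone that is also described as the cytosolic prostaglandin E synthase, rose by log2 1.19 in NRK-52E, from 250.1 to 580 FPM. Tbxas1, the thromboxane synthase, rose by log2 1.74 in NRK-49F from a low level, 0.280 to 0.940 FPM. Among further receptors, Ptgdr2, a prostaglandin D2 receptor, went from 10.7 to 0.800 FPM in NRK-52E (log2 -3.80, SE 0.262, edgeR FDR 6.34e-07) and had 0 counts in all NRK-49F libraries. Ptgfrn, which encodes a partner protein of the prostaglandin F receptor, fell in NRK-52E (log2 -0.38). In NRK-49F the prostacyclin receptor Ptgir rose by log2 1.90, while the thromboxane receptor Tbxa2r (log2 -2.28) and the prostaglandin F receptor Ptgfr (log2 -0.83) fell. Tbxa2r was low there, going from 1.16 to 0.245 FPM, with 3 to 13 counts per library at pH 6.0. For Ptgfr the pH groups overlapped (exact permutation p = 0.0571). Within number 20, Ptgfr had 18.6 and 19.4 FPM at pH 7.4 and at most 7.31 FPM at pH 6.0. Within number 21 the pH groups overlapped, with 10.9 FPM in N13 at pH 7.4 and 11.7 FPM in N16 at pH 6.0. Abcc4, a transporter that exports prostaglandins, rose in both lines, by log2 2.03 in NRK-52E and 1.70 in NRK-49F. Ptgr2, a reductase of prostaglandin breakdown products, fell in NRK-52E (log2 -1.70).

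Of 8 genes of the leukotriene and lipoxygenase branch, which also uses arachidonic acid, NRK-52E had 2 tested and NRK-49F had 3, and edgeR with DESeq2 called 0 in either line, beside 56.7% and 37.8% of all genes. At an unadjusted p below 0.05 in edgeR NRK-52E had 2 and NRK-49F had 0, beside 71.8% and 58.6% of all genes. DESeq2 alone called 0 in each, beside 43.2% and 38.3% of all genes. So few tested genes say little about the branch.

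For Ptgs1 and Ptgs2, the genes with the most alike pattern over the 16 libraries were sought among 13104 genes, by the root mean square difference of centred log2(FPM + 1). For Ptgs1 these were Dpep2 with 0.203, Rasgrp2 and Slc22a15 with 0.212 each, C1rl with 0.225 and Tmem44 with 0.227. For Ptgs2 they were Arhgef40 with 0.177, Actn1 and Cyth3 with 0.194 each, Scnn1a with 0.220 and Arhgap10 with 0.221. The measure takes line and pH differences together, and the added 1 FPM shrinks changes at low levels. A small value therefore does not by itself mean a shared pH response. In NRK-52E, Tmem44 went from 1.92 to 0.277 FPM at pH 6.0, and Ptgs1 from 26.9 to 11.1 FPM.

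Pla2g4a, Ptgs1 and Ptgs2 were all higher in NRK-49F, and the 250 bases before their annotated starts are shown for that reason. The sequences are from RefSeq on GRCr8, where 8 of the 10 members were matched, and Pla2g4a and Ptgs2 lie 141710 bases apart on chromosome 13. The windows are chr13:64572353-64572602 on the minus strand for Pla2g4a, chr3:39981169-39981418 on the plus strand for Ptgs1 and chr13:64713813-64714062 on the plus strand for Ptgs2. Both strands were searched for the TATA box TATAAA, the CCAAT box, the GC box GGGCGG, the E-box CACGTG, the cyclic AMP response element TGACGTCA and the antioxidant response element core TGACNNNGC, and capitals mark matches. Of 33469 promoter windows of this length, 12.9% hold TATAAA, 34% CCAAT, 30.5% GGGCGG, 5.59% CACGTG, 1.59% TGACGTCA and 10.1% TGACNNNGC. The Pla2g4a window holds TATAAA on the reverse strand, 103 bases before the start, and has a GC content of 42.4%, beside a median of 51.2% over all windows. The Ptgs2 window, with 57.2% GC, holds GGGCGG at 233 bases before the start, CCAAT on the reverse strand at 129 bases and CACGTG at 50 bases. The Ptgs1 window, with 54.4% GC, holds none of these letters. A match is a description and not a binding site.
Pla2g4a: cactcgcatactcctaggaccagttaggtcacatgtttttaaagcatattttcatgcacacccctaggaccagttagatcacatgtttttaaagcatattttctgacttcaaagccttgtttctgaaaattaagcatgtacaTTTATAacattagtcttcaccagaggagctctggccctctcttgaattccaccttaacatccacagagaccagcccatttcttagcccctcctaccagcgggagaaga
Ptgs1: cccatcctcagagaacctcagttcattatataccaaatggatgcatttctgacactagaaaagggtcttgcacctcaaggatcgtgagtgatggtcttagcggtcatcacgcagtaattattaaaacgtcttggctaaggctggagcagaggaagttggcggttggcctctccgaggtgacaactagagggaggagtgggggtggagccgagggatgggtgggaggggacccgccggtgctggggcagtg
Ptgs2: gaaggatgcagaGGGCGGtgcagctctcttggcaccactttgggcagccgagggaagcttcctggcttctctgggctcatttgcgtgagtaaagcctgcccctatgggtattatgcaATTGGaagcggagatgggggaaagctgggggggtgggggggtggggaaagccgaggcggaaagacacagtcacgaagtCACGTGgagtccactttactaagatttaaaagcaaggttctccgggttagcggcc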

How the data were processed

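Rat NRK-52E and NRK-49F cells in co-culture gave 16 libraries. The authors deposited raw counts of fragments per Ensembl gene on rn6, made with featureCounts with multi-mapping fragments counted at each place. The printed options set no strand, and the default of featureCounts counts without it. The study's methods name tophat2 as the aligner, while the submitters' processing notes name HISAT2 2.1.0. Groups come from the sample labels.

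FPM values were computed with TMM factors over the 16 libraries. The pH comparisons were fitted in the 8 libraries of each line, and the line comparisons and the difference of the pH effects in 1 model of 16 libraries, with edgeR 4.0.16 (quasi-likelihood test, low-count filter with a minimum count of 10) and DESeq2 1.42.0 in R 4.3.3, with Benjamini-Hochberg adjustment. Genes below an FDR of 0.01 in both tools with the same sign were called. Fold changes come from edgeR on the log2 scale, and the SE was taken as their absolute value over the square root of F. The exact permutation test used log2(FPM + 1). The fitting code was tested on simulated data.

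The members and lists were chosen with earlier results of these data known. All members are named. Of the other lists, at most the 5 largest called rises and 5 largest called falls in each line were to be named, with Pla2g12a and Akr1b1 added after their values were seen, and for Ptgs1 and Ptgs2 the 5 most alike genes with a mean of at least 1 FPM. Genes neighbouring Ptger1 and Pla2g4b were added after the values were seen. Alternatives were other scalings, filters, tools and thresholds, 1 fit of all libraries, each library left out, and the second number in the library names as a covariate. The coding of that covariate in the 16-library model was changed after its first results had been seen, and both codings are given. Ptgis, Fam213b, Ptgdr and Pecam1, an endothelial marker, were not analysed here, and 1 other gene is not reported here. Levels of the members were not compared between genes, since exon lengths were not used here, and the leading gene of a marker list is the one with the highest FPM, without regard to length.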

Additional observations from a re-analysis of the deposited data

Results flagged for a closer look

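The pH effect on Pla2g4a differed between the lines by the test of the difference itself. At pH 6.0 it changed by log2 -2.51 in NRK-52E cells and by log2 -0.56 for NRK-49F, and the difference, NRK-49F minus NRK-52E, was log2 1.96 (SE 0.292, edgeR quasi-likelihood FDR 2.63e-05, n = 4 libraries per group). Such a difference was called for 36.9% of all genes tested. In the 20 groups of 4 libraries formed by the 5 tested members and the 4 conditions, 0 libraries stood apart by Dixon's ratio, where chance gives about 1.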

How the results depend on the processing

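The 5 tested members gave 25 log2 fold changes and 565 values under alternatives. Of these, 542 kept their direction and their side of the threshold, 6 lost the call, 14 gained it and 3 changed sign. The members called for the difference of the pH effects went from 1 to 2 with DESeq2 alone, with library totals and with at least 1 CPM in at least 4 libraries, and to 3 at an FDR of 0.05, with a range of 1 to 2 when single libraries were left out. The gains were Ptges2, which was also called without N4, N8 or N12, and Ptgs1. The members called between the lines at pH 6.0, 5 in all, ranged from 4 to 6, with Ptger2 added by DESeq2 alone or without a filter. Other prostaglandin genes called in NRK-49F ranged from 7 to 11 when single libraries were left out. Ptges2 between the lines at pH 7.4 turned to log2 -0.28 with library totals and to -0.0136 without N3, in a range of -0.0136 to 0.1555 over the left-out libraries, and the difference of the pH effects on Ptger1 turned to 0.10 with library totals. None of these 3 was called before or after. Library totals move the median of all genes by -0.34 for the lines at pH 7.4 and 0.25 for the difference of the pH effects. The cause of the other shifts was not tested. Pla2g4a in NRK-49F was also called with DESeq2 alone, at an FDR of 0.05, without a filter and with the second number as a covariate (log2 -0.59, edgeR FDR 0.00346).

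The second number entered the 16-library model in 2 ways. It was first coded within each line, which ties a line comparison to 1 number per line. After those results had been seen it was replaced by the plain number, and the first coding was kept as an added alternative. The choice matters for Ptges2 between the lines at pH 6.0, which was called with the plain number (log2 -0.54, edgeR FDR 0.00405) and not with the first coding (log2 -0.35, edgeR FDR 0.0458). The other calls on members were the same under both codings. Low counts left Ptges, Hpgd, Ptger2 and Ptger4 untested in edgeR.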
